A study of Homo sapiens with 6 samples.

Results

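The ERBB receptors and their ligands were examined in a human breast cancer line, labelled as MDA-MB-453, after knockdown of N6AMT1, a methyltransferase studied here for N6-methyladenine in DNA. The set is a list of 10 named genes among 62438 gene identifiers in the deposited table, namely the 4 receptors EGFR, ERBB2, ERBB3 and ERBB4 and the 6 ligands EREG, AREG, HBEGF, TGFA, BTC and NRG1. All 10 were found by symbol, and 8 of them (3 receptors and 5 ligands) passed the filter on low counts that left 17320 genes for testing. One group of cultures received a siRNA against N6AMT1 (si-N6AMT1), the other a scrambled siRNA (control), both at 10 nM with a lipid reagent for 48 h, and each group gave 3 libraries. The knockdown was transient and made in a single line, and nothing in the labels says whether the triplicates came from separate cultures, so p-values measure the spread between these libraries, which may be technical.

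ERBB receptors are cell-surface tyrosine kinases that signal as pairs. EGFR binds AREG, EREG, TGFA, HBEGF and BTC, while ERBB3 and ERBB4 bind the neuregulins, and ERBB4 also takes BTC, EREG and HBEGF. ERBB2 has no known ligand of its own and acts as a partner of the others, whereas ERBB3 has very weak kinase activity and depends on a partner to be phosphorylated. The ligands are made as membrane-bound precursors and are released by metalloproteases such as ADAM10 and ADAM17, and the receptors pass the signal to the RAS and MAP kinase cascade and to PI3 kinase and AKT. In breast cancer, ERBB2 is the gene behind the HER2-positive subtype, and EGFR is typical of tumours with basal features.

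Total counts ran from 19739247 to 21289740 per library. Set against sampling noise (chi-square divided by its degrees of freedom, about 1 where only sampling differs), pairs of libraries within a group gave 1.35 to 1.69 and pairs across groups 6.07 to 6.86, so all 6 were kept as separate replicates. N6AMT1 itself was listed with 61, 72 and 60 counts in the si-N6AMT1 libraries and with 136, 135 and 141 in control (log2 fold change -1.10 with a standard error of 0.119, edgeR's quasi-likelihood test, FDR = 3.65e-07), so the knockdown was seen in every library. The line name was then checked against marker genes. MDA-MB-453 is generally described as a luminal line that lacks oestrogen and progesterone receptors. The luminal keratin KRT19 stood at 0.797 TPM (counts per transcript length, scaled to the same total in each library) and the luminal factor GATA3 at 1.92 TPM on average in control. KRT8 (748 TPM), KRT18 (726 TPM) and EPCAM (455 TPM) of the same list were high, so 9 of its 12 genes reached 1 TPM. All 8 genes of the basal and mesenchymal list reached 1 TPM, among them KRT17 with 4176 TPM, KRT5 with 763 TPM and KRT14 with 150 TPM. Their summed level was 6764 to 6832 TPM in control and 6812 to 6956 TPM in si-N6AMT1 libraries, and that of the luminal list 2630 to 2661 TPM and 2702 to 2737 TPM. ESR1 and PGR summed to at most 0.286 TPM in any library, 5 leukocyte genes to at most 0.343 TPM, 2 endothelial genes to at most 0.315 TPM and 5 fibroblast genes to at most 19.7 TPM. The low KRT19 and GATA3 and the high basal keratins go against the labelled line, which is therefore kept below only as a label.

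In control cells the receptor side was almost entirely EGFR, and the ligand side was TGFA, AREG, HBEGF and NRG1. EGFR had 250 to 267 TPM in the 3 control libraries, which placed it at rank 519 of 20019 protein-coding genes. TGFA followed with 90.2 to 95.1 TPM and AREG with 87.2 to 92.4 TPM, and these neighbours in the order overlapped in range. HBEGF averaged 46.1 ± 1.00 TPM (SD, n = 3). ERBB2 had 25.8 to 26.7 TPM and NRG1 23.4 to 24.3 TPM, and the ranges of HBEGF, ERBB2 and NRG1 did not overlap. Below them lay a gap of 12.8-fold. BTC had 1.86 ± 0.0339 TPM (SD, n = 3), ERBB3 0.614 ± 0.0389 TPM, EREG 0.207 ± 0.0593 TPM and ERBB4 0.0579 ± 0.00700 TPM. ERBB3, the kinase-poor receptor for neuregulins, thus stood far below EGFR and ERBB2 in level per length, and ERBB4, the other neuregulin receptor, had only 6 or 7 counts per control library. The neuregulin gene NRG1 was present in the same cells at 2463 to 2754 counts.

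**Figure D1:**
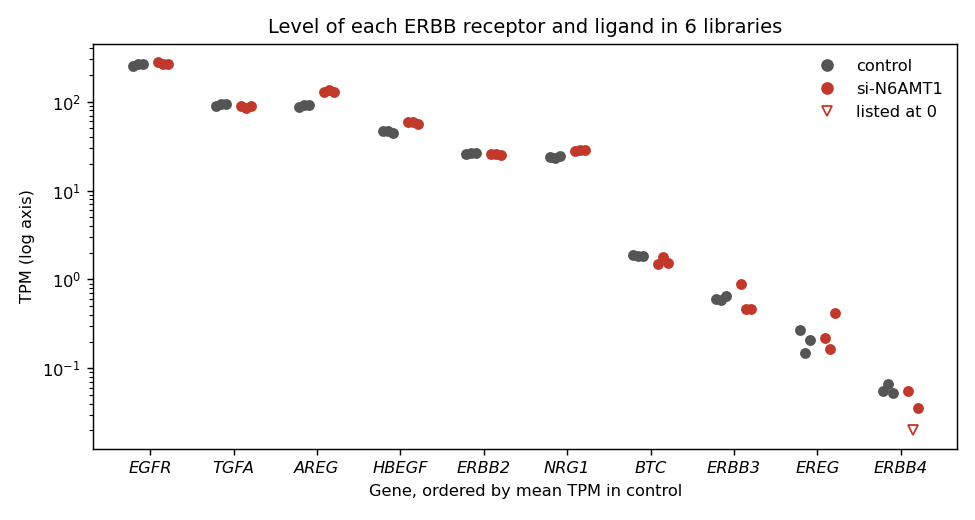
TPM on a log axis for the 10 genes, ordered by mean level in control, with 1 point for each of the 3 control (grey) and 3 si-N6AMT1 (red) libraries. EGFR stands highest in every library, 4 ligands and ERBB2 lie between 23.4 and 137 TPM, and BTC, ERBB3, EREG and ERBB4 lie below 2 TPM, with ERBB4 listed at 0 in 1 si-N6AMT1 library (open triangle).

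Measured by share, EGFR made up 90.6% ± 0.221 (SD, n = 3) of the summed TPM of the 4 receptors in control and 91.1% ± 0.116 in si-N6AMT1 libraries, and ERBB2 9.15% ± 0.213 and 8.71% ± 0.181. Small as they were, these differences left no overlap between groups (p = 0.1 for each by a two-sided exact permutation test). ERBB3 held at most 0.291% and ERBB4 at most 0.0224% in any library. Among the 6 ligands, TGFA held 36.4% ± 0.287 in control and AREG 35.5% ± 0.531, which was close to parity on this scale. In si-N6AMT1 libraries AREG held 42.7% ± 1.17 and TGFA 28.7% ± 1.07. Every si-N6AMT1 library lay above every control library for the share of AREG and below it for that of TGFA (p = 0.1 in both cases by a two-sided exact permutation test, which cannot go lower with groups of 3). The share of BTC, 0.727% ± 0.0272 in control and 0.522% ± 0.0452 in si-N6AMT1 libraries, did not overlap either (p = 0.1, same exact test). TGFA itself differed by a fold of 0.954, which was not called, and its share is taken of a ligand sum that was larger in si-N6AMT1 libraries. HBEGF had a share of 18.0% ± 0.528 in control and 18.8% ± 0.459 in si-N6AMT1 libraries, and NRG1 one of 9.34% ± 0.293 and 9.23% ± 0.235 (exact permutation test, p = 0.2 and p = 0.8). These shares depend on the division by transcript length. By counts, TGFA held 42.7% and AREG 12.5% in control and 36.1% and 16.1% in si-N6AMT1 libraries, so AREG stayed below TGFA, and HBEGF held 12.2% and 13.6% with no overlap between groups (exact permutation test, p = 0.1). The summed TPM of the 6 ligands rose from 255.4 ± 4.98 in control to 308.2 ± 3.54 in si-N6AMT1 libraries, a ratio of 1.21 with no overlap (exact permutation test, p = 0.1), and that of the 4 receptors was 287 ± 9.02 and 296 ± 7.72 (p = 0.5, same exact test).

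**Figure D2:**
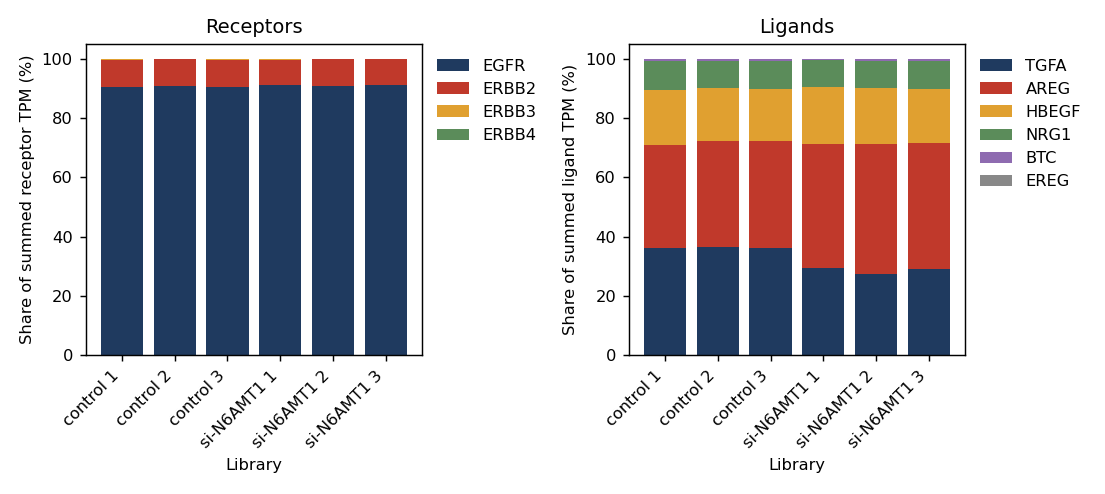
Share of each gene in the summed TPM of the 4 receptors (left) and the 6 ligands (right), in percent, 1 bar per library. The receptor bars are 90.4 to 91.2% EGFR in all 6 libraries, whereas in the ligand bars AREG takes 34.9 to 36.0% in control and 41.7 to 43.9% after si-N6AMT1.

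The question put by the knockdown is which genes change when N6AMT1 is lowered. Of the 8 genes tested, 3 were upregulated at an FDR under 0.05, all of them ligands (AREG, HBEGF and NRG1), compared with 9.78% of all genes tested that were upregulated. None of the 3 tested receptors was called by edgeR, nor EGFR and ERBB2 by DESeq2, which gave no adjusted p for ERBB3, while EGFR had an unadjusted p under 0.05 and was called by limma-voom. None of the 8 genes was downregulated by edgeR, against 11.5% of all genes tested. At an unadjusted p under 0.05, 1 of the 8 was lower (TGFA), and limma-voom called 0 lower, as did DESeq2 among those to which it gave an adjusted p (not ERBB3 or BTC). The median log2 fold change was 0.26 over the 5 tested ligands, -0.02 over the 3 tested receptors and 0.00 over all genes tested. With so few genes, these medians only describe the set. In CPM, the 3 libraries of each group did not overlap for 6 of the 8 genes, 4 higher (EGFR, AREG, HBEGF and NRG1) and 2 lower (TGFA and BTC), where 16.8% and 18% of all genes tested were so separated. These were bulk samples, in which fewer cells of a type and less RNA per cell cannot be told apart. Basal and mesenchymal markers moved as well, 5 of 8 upregulated and 0 downregulated, and luminal markers with 3 of 10 tested up and 2 down. Their part in the change of the ligands was not tested.

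AREG encodes amphiregulin, a ligand of EGFR that is required for growth of the mammary ducts. Its normalized expression was 49.1, 50.7 and 50.9 CPM (counts scaled to library size) in control replicates 1 to 3 and 70.3, 76.9 and 72.1 CPM in si-N6AMT1 replicates 1 to 3. All si-N6AMT1 libraries lay above all control libraries, with a gap wider than the range within either group. The log2 fold change was 0.54 (95% interval 0.46 to 0.62, FDR = 4.73e-10 from edgeR's quasi-likelihood test), which is 1.46-fold. AREG (ENSG00000109321) is a plus-strand gene at 75310853 to 75320722 of chromosome 4 (hg19, the GRCh37 build). A near-identical copy, AREGB (ENSG00000205595), is listed on the same chromosome in this build and took 33 to 61 counts per library, 3.82% of the AREG counts, so reads of the pair may have been divided by estimate. With both summed, the log2 fold change was 0.53 (FDR = 7.85e-10, same test).

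Promoters of the 10 genes were looked up in RefSeq (GRCh38.p14, 250 bases before to 50 after the start), where 8 were matched. ERBB3 and NRG1 were not matched, so the promoter of NRG1, which also rose, was not searched. The AREG promoter is shown because AREG rose most and its start region holds a pair of well-known elements. Its TGACGTCA, the palindromic site of the cyclic AMP response element, begins 65 bases before the start, and a TATAAA box (searched on both strands) begins 29 bases before it. Capitals mark the matched letters, and both windows are on the plus strand, at chr4:74445060-74445089 and chr4:74445095-74445124.
AREG cAMP response element: cggccgggcctTGACGTCAtgggctgcggc
AREG TATA box: cccggctgagccTATAAAgcggcaggtgcg
TGACGTCA is held by 1.98% and TATAAA by 12% of the 27305 promoters in that table, and of the 8 matched genes only AREG holds the first, while EREG also holds the second. EREG's window, at chr4:74365101-74365130 on the plus strand, begins its TATAAA 32 bases before the start.
EREG TATA box: ggggctccctagTATAAAgttcgcagcacc
HBEGF, TGFA and EGFR promoters hold no TATAAA in this window. They hold 5, 4 and 3 copies of GGGCGG, the GC box (either strand, overlapping copies counted apart), which 44.6% of all promoters hold at least once.

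HBEGF encodes heparin-binding EGF-like growth factor, a ligand of EGFR and ERBB4. Its expression was 49.8, 49.4 and 47.3 CPM in control and 62.2, 62.8 and 59.8 CPM in si-N6AMT1 replicates 1 to 3. Again no library of one group reached the range of the other. The log2 fold change was 0.34 (95% interval 0.26 to 0.41, FDR = 5.30e-07 from edgeR's quasi-likelihood test), or 1.26-fold. The gene (ENSG00000113070) is on chromosome 5, minus strand, between 139712428 and 139726188.

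NRG1 encodes neuregulin 1, which binds ERBB3 and ERBB4. It was measured at 130, 125 and 130 CPM in control and at 148, 156 and 157 CPM in si-N6AMT1 replicates 1 to 3, so the groups were again apart. The log2 fold change was 0.26 (95% interval 0.20 to 0.32, FDR = 4.77e-07 from edgeR's quasi-likelihood test), or 1.20-fold. NRG1 (ENSG00000157168) spans chromosome 8 from 31496738 to 32713184 on the plus strand. Its many isoforms, which differ in how the ligand is anchored and released, cannot be told apart in counts summed per gene. The largest count of a gene overlapping it was 46, in a non-coding RNA on the same strand with 1.17% of the NRG1 counts.

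TGFA encodes transforming growth factor alpha, another ligand of EGFR. It had 169, 175 and 171 CPM in control and 166, 160 and 166 CPM in si-N6AMT1 replicates 1 to 3. The 3 si-N6AMT1 values lay just below the 3 control values, but the difference did not pass the threshold (log2 fold change -0.07, 95% interval -0.12 to -0.01, FDR = 0.0629 from edgeR's test). The lower bound of this interval is a fold of 0.920. BTC, betacellulin, had 45, 43 and 46 counts in control and 35, 44 and 38 in si-N6AMT1 libraries. Its log2 fold change of -0.20 carried an interval from -0.57 to 0.17 (FDR = 0.489, same test), and a change of this size was not detectable at this depth. EREG, epiregulin, had 11, 6 and 9 counts in control and 9, 7 and 18 in si-N6AMT1 libraries, did not pass the filter on low counts, and overlapped between groups.

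**Figure D3:**
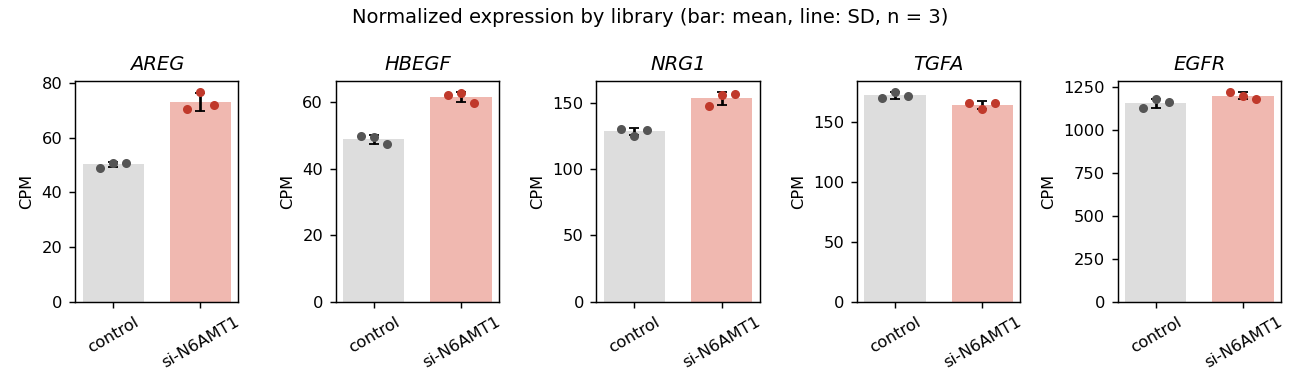
CPM by library (points) with mean (bars, from 0) and SD (lines, n = 3) for AREG, HBEGF, NRG1, TGFA and EGFR in control and si-N6AMT1 cells. The points of AREG, HBEGF and NRG1 are clearly higher after si-N6AMT1, whereas those of TGFA and EGFR differ little, with folds of 0.954 and 1.04.

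EGFR itself had 1129, 1179 and 1162 CPM in control and 1225, 1197 and 1182 CPM in si-N6AMT1 replicates 1 to 3. The lowest si-N6AMT1 library stood only just above the highest control library, and the replicates of each group spanned about as much as the groups differed. The log2 fold change of 0.05 (95% interval 0.01 to 0.10) did not pass the threshold in edgeR's quasi-likelihood test (FDR = 0.0780). limma-voom did call it, with the same log2 fold change of 0.05 and an FDR of 0.0328. The upper bound of the 95% interval given above is a fold of 1.07. EGFR (ENSG00000146648) spans chromosome 7 from 55086710 to 55279321 on the plus strand, and the antisense gene EGFR-AS1 within it took at most 54 counts, 0.18% of the EGFR counts.

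ERBB2, the HER2 receptor gene, had 53.6, 53.3 and 54.3 CPM in control and 52.8, 53.9 and 51.8 CPM in si-N6AMT1 replicates 1 to 3. The groups overlapped, and the log2 fold change was -0.02 (95% interval -0.10 to 0.05, FDR = 0.698 from edgeR's test), an interval that leaves out changes beyond 0.933-fold and 1.04-fold. ERBB3 had 30, 29 and 35 counts in control and 44, 24 and 24 in si-N6AMT1 libraries. Replicate 1 of si-N6AMT1 was the highest of all 6 and the other two were the lowest, so the spread within that group was wider than the difference. The log2 fold change of -0.03 had an interval from -0.55 to 0.48 (FDR = 0.948, same test) and became -0.40 without si-N6AMT1 replicate 1, 0.12 without replicate 2 or without replicate 3, and 0.016 without control replicate 3. ERBB4, with 6, 7 and 6 counts in control and 6, 0 and 4 in si-N6AMT1 libraries, was not tested.

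**Figure D4:**
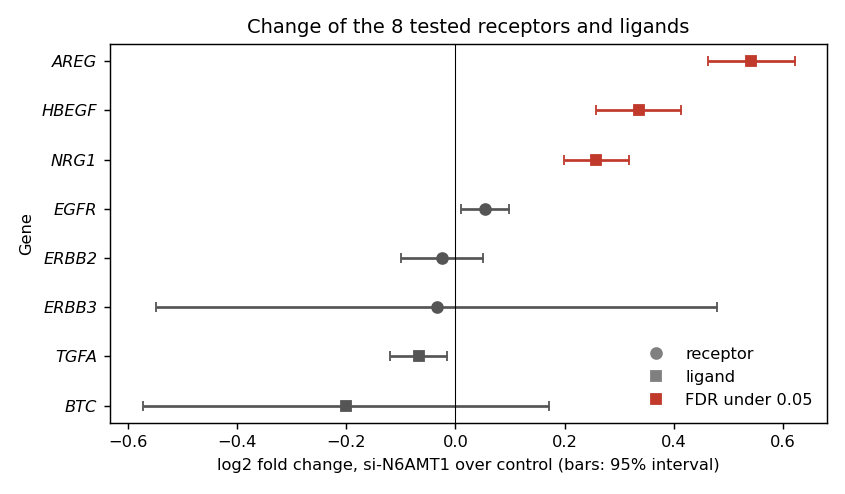
log2 fold change of si-N6AMT1 over control with 95% intervals for the 8 tested genes, receptors as circles and ligands as squares. The 3 genes with an FDR under 0.05 (red) are AREG at 0.54, HBEGF at 0.34 and NRG1 at 0.26, and the intervals of ERBB3 and BTC are the widest.

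The ligand genes AREG, EREG and BTC, with EPGN (epigen), lie close together on chromosome 4 of GRCh37, EPGN from 75174187, EREG from 75230862, AREG from 75310853 and BTC from 75669969. Only AREG was abundant there, at 90.6 ± 2.90 TPM (SD, n = 3) in control against 1.86 TPM for BTC, 0.811 TPM for EPGN and 0.207 TPM for EREG, and it was the one gene of these that passed the test, EREG being too low to be tested. EPGN had a log2 fold change of 0.13 (95% interval -0.43 to 0.69, FDR = 0.792 from edgeR's test), too wide to compare with AREG. Across the remaining ERBB ligands outside the 10, NRG4 was at 13.7 ± 0.657 TPM in control and 14.1 ± 0.316 TPM in si-N6AMT1 libraries (log2 fold change 0.05, FDR = 0.641), and NRG2 was at 0.523 ± 0.152 TPM and 0.654 ± 0.161 TPM (log2 fold change 0.32, FDR = 0.498). EGF had 7 to 10 counts per control and 2 to 4 per si-N6AMT1 library and was not tested, and NRG3 had 0 counts throughout, which allows up to 3 counts or 0.141 to 0.152 CPM per library. Of these 5 genes 3 were tested, and 0 were called by edgeR in either direction, 0 had an unadjusted p under 0.05, and DESeq2 and limma-voom called 0. Among all genes tested, 9.78% were upregulated and 11.5% downregulated, and 3 genes are too few to compare with these shares.

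Messenger RNAs of growth factors often carry AU-rich sequence in the 3′ UTR, which is known to shorten their life. In the reference transcripts of GENCODE v44 on GRCh37, TATTTAT on the transcript strand, a stretch typical of such sequence, was held by AREG, HBEGF, TGFA and NRG1, and also by 36% of 13150 tested protein-coding genes and 29.4% of the upregulated ones. EREG and ERBB4 also held it, while EGFR, ERBB2, ERBB3 and BTC did not. Long UTRs hold any such sequence more often, and the UTRs ran from 265 bases for AREG to 9644 for NRG1. The windows of AREG and HBEGF, whose mRNAs rose, are shown with the match in capitals. Those of the other holders, among them NRG1, which also rose, are not shown.
AREG, base 229 of the 3′ UTR: taatggaagtgTATTTATtttacagctcat
HBEGF, base 604 of the 3′ UTR: cttaaattataTATTTATtttattctatgt
HBEGF, base 1413 of the 3′ UTR: aacctggttcaTATTTATactttgcaatcc
TTCACAT and TCACATA, which share 6 bases, were searched as well, because an earlier look at these libraries found them more often in genes that fell. At least 1 of them is in the 3′ UTR of 22.5% of tested protein-coding genes, of 44.2% of the downregulated and of 11.9% of the upregulated ones. These shares come from the same libraries that led to the choice of the sequences, so they are not independent of it. AREG and HBEGF hold neither, and the 3 receptors that were tested hold neither. TGFA holds TCACATA once, and NRG1, which was upregulated, holds 4 such sites in its much longer UTR. Only the TGFA window is shown.
TGFA, base 2107 of the 3′ UTR: agtgagaggccTCACATAtacgcctcccta

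For AREG, the gene with the smallest p of the set, the 3 genes with the most similar pattern over the 6 libraries, by Pearson correlation of log2 CPM among all tested genes, were FST (r = 1.00), DDX39B (r = 0.997) and CST3 (r = 0.996). FST, which encodes the activin-binding protein follistatin, had 23.9, 24.5 and 24.5 CPM in control and 31.0, 33.4 and 31.8 CPM in si-N6AMT1 replicates 1 to 3. The ranking describes these libraries only, since the points share libraries and fall into 2 groups.

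Genes that release the ligands, or that control this release, moved in both directions, with more called falls than rises. Of 13 shedding genes, all tested, 3 were upregulated (23.1%) and 6 downregulated (46.2%), where 9.78% and 11.5% of all genes tested were so called. DESeq2 without a filter called 2 of them higher and 4 lower. Their median change was -0.04 on the log2 scale. ADAM9, a metalloprotease, fell from 144 to 119 TPM (log2 fold change -0.27, FDR = 1.49e-08 from edgeR's test) and ADAM12 from 10.3 to 7.91 TPM (-0.38, FDR = 4.24e-06). TIMP3, an inhibitor of such proteases, rose from 112 to 129 TPM (0.20, FDR = 2.85e-06). A pair of further genes, chosen after their values were seen because they are the best-known sheddases of these ligands, were ADAM17 and ADAM10. ADAM17, which releases AREG, HBEGF and TGFA, had 69.1 ± 2.67 TPM in control and 69.1 ± 0.166 TPM in si-N6AMT1 libraries (log2 fold change 0.00, 95% interval -0.05 to 0.06, FDR = 0.951). ADAM10, which releases BTC and EGF, fell from 36.7 ± 0.603 TPM to 31.7 ± 0.377 TPM (log2 fold change -0.21, FDR = 4.32e-06).

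Downstream of the receptors, the called changes named here were small. Of the genes tested, adaptors held 12.5% up and 12.5% down, and the RAS to MAP kinase cascade 0% and 28.6%. The PI3 kinase branch held 4.76% and 14.3%, and the STAT branch 0% and 33.3%. Among all genes tested these shares were 9.78% and 11.5%. Among 16 tested adaptors, which dock on phosphorylated receptors, 2 rose and 2 fell (median log2 fold change 0.01), with 1 rise left without control replicate 1, control replicate 2 or si-N6AMT1 replicate 1. SHC1 rose by a log2 fold change of 0.09 (FDR = 0.00411), while CRKL (-0.11, FDR = 0.000968) and the phosphatase PTPN11 (-0.13, FDR = 0.00121) fell. In the cascade from RAS to MAP kinase, 4 of 14 genes fell and 0 rose by edgeR, where 1 was higher at an unadjusted p under 0.05 and DESeq2 and limma-voom called 0 higher. MAP2K1, a kinase of this cascade, fell by 0.12 on the log2 scale (FDR = 0.00311). The median of this list was -0.08. On the PI3 kinase branch, 3 of 21 genes fell, among them the kinase MTOR (log2 fold change -0.13, FDR = 0.00264) and the transcription factor FOXO3 (-0.11, FDR = 0.0105), and 1 rose (median -0.04). The rise was lost with any library left out, and FOXO3 lost its call without control replicate 3 (FDR = 0.0674) or si-N6AMT1 replicate 2 (FDR = 0.0504). Of 6 STAT branch genes, 2 fell, among them STAT5B (-0.09, FDR = 0.0343), and 0 rose by edgeR, with 1 higher at an unadjusted p under 0.05 and 0 higher by DESeq2 or limma-voom (median -0.06). Both falls were lost without control replicate 2, control replicate 3 or si-N6AMT1 replicate 3, where STAT5B had an FDR of 0.149, 0.123 and 0.0917, and 1 fall was left without si-N6AMT1 replicate 1 or without si-N6AMT1 replicate 2, where STAT5B had an FDR of 0.130.

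Of 18 listed inhibitors, ubiquitin ligases and related regulators of the receptors, not all of them negative, 5 were downregulated (27.8%) and 2 upregulated (11.1%). Among all genes tested, 11.5% were downregulated and 9.78% upregulated. The median log2 fold change of the list was -0.01. Only 1 gene was upregulated whenever a library other than si-N6AMT1 replicate 1 was left out. CBL, the ubiquitin ligase that marks active EGFR for degradation, fell from 24.1 to 19.8 TPM (log2 fold change -0.28, FDR = 7.99e-07 from edgeR's test). SOCS2 fell from 35.8 to 28.8 TPM (-0.31, FDR = 3.57e-05) and SOCS4, which acts on EGFR, from 26.0 to 23.1 TPM (-0.17, FDR = 0.000485). Of 12 inhibitors of RAS and MAP kinase signalling, only some of which that signalling induces (the feedback inhibitors of the pathway plot), 4 rose (33.3%) and 2 fell (16.7%, median -0.03). However, 0 fell without control replicate 2 and 1 without si-N6AMT1 replicate 1, and DESeq2 called 0 falls. The rises were led by phosphatases of MAP kinases, DUSP5 with 73.9 and 92.8 TPM (log2 fold change 0.33, FDR = 3.81e-08), DUSP7 (0.19, FDR = 1.05e-05) and DUSP4 (0.17, FDR = 0.00585). Among 15 genes for chaperones and endocytosis of the receptors, 2 rose and 2 fell (13.3% each, near the shares of all genes tested, median 0.04). Only 1 fall was left without control replicate 2, control replicate 3 or si-N6AMT1 replicate 2. These included CLTC, the clathrin heavy chain (-0.10, FDR = 0.00153), the clathrin adaptor EPS15 (0.13, FDR = 0.00996) and the chaperone HSP90B1 (0.07, FDR = 0.0111). EPS15 lost its call without si-N6AMT1 replicate 1 (FDR = 0.0672), and HSP90B1 without control replicate 2 (FDR = 0.0592) or si-N6AMT1 replicate 3 (FDR = 0.0717).

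Transcriptional targets of MAP kinase signalling held 7 upregulated genes of 18, with 3 downregulated (1 without si-N6AMT1 replicate 3) and a median log2 fold change of 0.10. FOS, an immediate early gene, rose from 182 to 236 TPM (log2 fold change 0.38, FDR = 1.79e-10 from edgeR's test) and MYC from 133 to 165 TPM (0.31, FDR = 6.90e-10). CCND1, which encodes cyclin D1, went the other way, from 102 to 68.2 TPM (-0.57, FDR = 1.91e-13), the largest absolute change of the called genes in these lists. Taking the 147 tested genes of all lists, 15.6% were upregulated and 19.7% downregulated, with a median of -0.00, beside 9.78% and 11.5% of all genes tested.

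**Figure D5:**
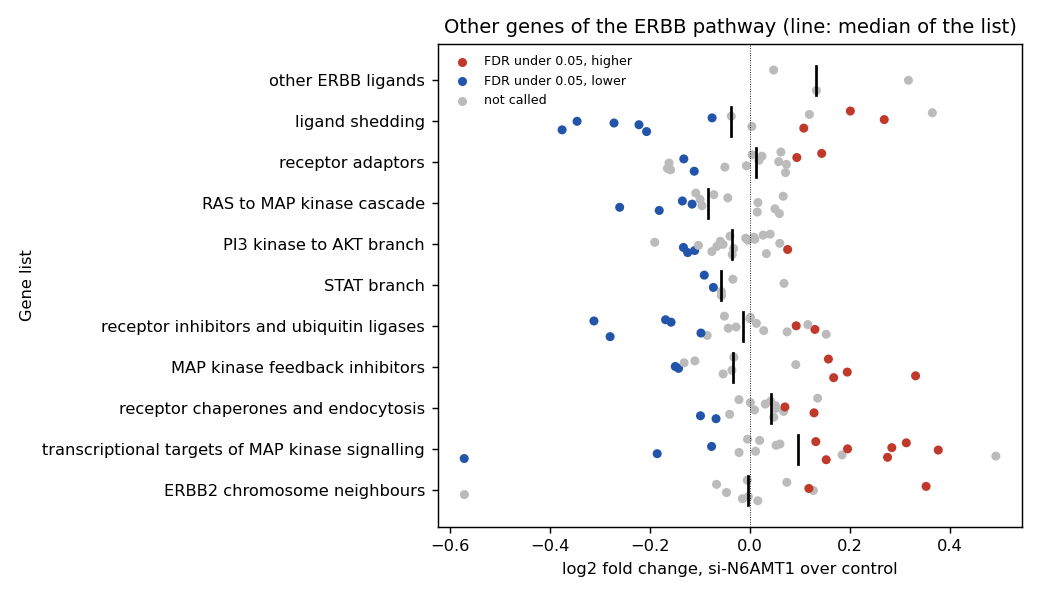
log2 fold change of each tested gene in 11 lists of the ERBB pathway, with called genes in red (higher) and blue (lower) and the list median as a black line. Shedding genes and receptor inhibitors hold more blue than red points, and targets of MAP kinase signalling more red than blue, with CCND1 at -0.57 on the far left.

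The neighbours of ERBB2 on chromosome 17, which are gained with it where the HER2 region is amplified, were also read. Of 15 such genes 11 were tested, and 2 were upregulated (18.2%) and 0 downregulated by edgeR. Among all genes tested these shares were 9.78% and 11.5%, and 11 genes are too few to set apart from them. At an unadjusted p under 0.05, 1 was lower, and DESeq2 and limma-voom called 0 lower. PGAP3 had 5.76 ± 0.315 CPM in control and 7.36 ± 0.699 CPM in si-N6AMT1 libraries (SD, n = 3, log2 fold change 0.35, FDR = 0.0187), and ORMDL3 rose by a log2 fold change of 0.12 (FDR = 0.0242). DESeq2 called neither. PGAP3 lost its call without control replicate 2 (FDR = 0.0771) or si-N6AMT1 replicate 3 (FDR = 0.102), and ORMDL3 without control replicate 1 (FDR = 0.0938), control replicate 2 (FDR = 0.0514), si-N6AMT1 replicate 2 (FDR = 0.0645) or si-N6AMT1 replicate 3 (FDR = 0.112). In control, ERBB2 stood at 26.2 TPM beside 49.8 TPM for MIEN1 and 35.1 TPM for STARD3, which lie on either side of it, and 28.9 TPM for CDK12. MIEN1 and PGAP3 overlap ERBB2 on the opposite strand, and since the strand setting of the counting is not given in the sources used here, reads in the shared stretches cannot be assigned with certainty.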

How the data were processed

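For cells labelled MDA-MB-453, 3 si-N6AMT1 and 3 control stranded mRNA libraries were sequenced. The authors trimmed reads with Trim Galore, quantified transcripts of GENCODE (hg19) in kallisto, version 0.46.0, and deposited estimated counts, summed per gene as whole numbers without normalization. kallisto divides reads among similar transcripts by estimate.

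Symbols, positions and transcript lengths came from GENCODE v44 on GRCh37, and 62149 of 62438 identifiers had a symbol. TPM used the reference transcript's length for each gene. Counts were tested with edgeR (4.0.16, under R 4.3.3). The settings were an expression filter with a minimum count of 10, TMM, the quasi-likelihood test, no covariate, Benjamini-Hochberg FDR over 17320 genes and a threshold of 0.05. The procedure was also run on simulated data with changes larger than those of the called members and the same dispersion for all genes. That run did not test changes as small as theirs. CPM is scaled by TMM. At 1 CPM a library holds 19.7 to 21.3 counts, and limits given for a count of 0 cover counting error only. Alternatives were RLE factors, no filter, DESeq2 v1.42.0, limma-voom (v3.58.1), the replicate number as a block and each library left out. Adding AREGB to AREG was chosen after the data had been seen.

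The members and gene lists were chosen with earlier results of these data known. Named are all members, N6AMT1, markers, the other ligands, called ERBB2 neighbours, up to 3 called genes with the smallest p per list, and the 3 genes most like the leading member. Some genes that this rule names are not reported here. Protein sequences were not used here.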

Additional observations from a re-analysis of the deposited data

How the results depend on the processing

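AREG, HBEGF and NRG1 kept their direction and their FDR under 0.05 in every alternative run, with log2 fold changes of 0.50 to 0.57, 0.31 to 0.36 and 0.24 to 0.29. EGFR passed the threshold with limma-voom alone (log2 fold change 0.054, FDR = 0.0328), and its FDR reached 0.285 with 1 library left out. ERBB3 turned upward with a library left out (log2 fold change -0.40 to 0.12), and its share of receptor TPM with it (difference of -0.0559 to 0.0110 percentage points). The share of EREG did likewise (-0.0191 to 0.0236 percentage points). By counts in place of TPM, the difference in the share of NRG1 was 1.81 percentage points in place of -0.110. Ranked by CPM, which ignores length, NRG1 moved to place 3, ERBB2 to 4, AREG to 5 and HBEGF to 6. DESeq2 called 796 genes higher and 1136 lower without a filter, and 930 and 1240 among genes with a TPM of at least 1. Of the pathway genes, DESeq2 without a filter called 13 higher and 19 lower, against 23 and 29, and DUSP4 (FDR = 0.0792), EPS15 (FDR = 0.0854), FOXO3 (FDR = 0.105) and STAT5B (FDR = 0.187) lost their calls. The cause of these differences was not tested.

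Same-numbered replicates did not deviate together (correlations of -0.0381, -0.0422 and 0.00997), so the numbers were not taken as pairs. With the replicate number as a block, 3 members were again upregulated and 0 downregulated, AREG at 0.54 (FDR = 2.87e-10), and 1522 genes were higher and 1804 lower, against 1694 and 1993, and 19 pathway genes higher and 25 lower. The block changed no call among the members. Among the named pathway genes, HSP90B1 (FDR = 0.0626) and STAT5B (FDR = 0.0615) lost theirs. Depth limits ERBB3, ERBB4, EREG and BTC.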
